A study of Rattus norvegicus with 9 samples.

Results

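The BCL2 family decides whether a cell opens its mitochondria and dies by apoptosis. Anti-apoptotic members (Bcl2, Bcl2l1, which encodes BCL-XL, and Mcl1) hold the pore-forming members (Bak1 among them) in check, and the BH3-only members (Bid, Bad, Bik, Bmf and Bcl2l11, which encodes BIM) relieve that hold or activate the pore formers directly. In the prostate, androgen withdrawal is known to induce apoptosis of the secretory epithelium, and BCL2 proteins are among the factors that set its threshold. The 9 genes named here were selected by name, and each probe was assigned to them through the RefSeq accession in its annotation. All 9 had a probe, with 12 probes in all among 30356 probes used, and they are 9 of 15163 genes with a symbol on the arrays.

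Expression had been measured in prostates of male Sprague Dawley rats, 6 weeks old at the start, in 3 groups of 3 animals with 1 array each. Sham animals had a sham operation and received corn oil by injection and the oral vehicle. BPH animals were castrated and received DHT at 3 mg/kg daily for 4 weeks, with the same oral vehicle, so benign prostatic hyperplasia was modelled by androgen replacement after castration. BPH+ghrelin animals were likewise castrated, received the same DHT, and were given ghrelin, a hormone of the stomach and ligand of the receptor GHSR, at 20 nmol/kg daily for 2 weeks. The sham group therefore differs from both BPH groups in castration as well as in DHT, and these cannot be told apart. Markers of the labelled tissue were present: all 13 genes with a probe in the list of secretory epithelium, such as Pbsn (probasin) and Krt18 (a luminal keratin), were well above background on at least some arrays. Genes of the seminal vesicle and coagulating gland, which adjoin the rat prostate, were present as well. Values are log2 signals after quantile normalization, in which a difference of 1 is a doubling, and levels of different probes are not compared with each other.

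The arrays were not equal in quality or in the levels of tissue markers. Sham 2 stood apart, with 61.4% of probes well above background against 69.5% or more on every other array. Before normalization the BPH arrays were the brightest, with median signals of 133, 129 and 101. The sham arrays had 96, 41 and 78, and the BPH+ghrelin arrays 79, 86 and 73. The part of this signal strength in the members' differences was not tested. The mean level of the secretory epithelium list was 12.5 to 12.7 on the sham arrays, 10.85 to 12.07 on the BPH arrays and 10.9 to 11.6 on the BPH+ghrelin arrays. Its genes went both ways between BPH and sham, with 7 of 13 higher (median 0.03, 1 called higher and 2 called lower). The 6 tested genes of the seminal vesicle and coagulating gland had the largest median difference from sham of the marker lists. It was -4.45 for BPH against sham (4 lower and 2 higher, 3 called lower). For BPH+ghrelin against sham it was -5.45 (4 lower and 2 higher, 4 called lower). Their mean level was 8.47 to 9.54 on the sham arrays, 4.49 to 7.24 on the BPH arrays and 3.98 to 5.79 on the BPH+ghrelin arrays, and the part of this tissue in the members' differences from sham was not tested. In whole tissue, fewer cells of a type and less RNA per cell cannot be told apart. The array headers give a scan and a position, from which slides were inferred; no slide number was used. On that basis BPH 1 to 3 shared a slide with BPH+ghrelin 1, sham 1 and sham 2 shared one with BPH+ghrelin 2 and 3, and sham 3 was alone, so that no inferred slide held both BPH and sham arrays. A fit with the inferred slide as a block therefore links the BPH arrays to the others only through BPH+ghrelin 1, and sham 3 adds nothing to its differences.

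In BPH, compared with sham, Mcl1 was the only member that passed the adjusted threshold. Its expression was higher by 0.62 on the log2 scale (SE 0.13, 1.53-fold, adjusted p = 0.0420), while the other 7 members tested did not pass it. Of these, Bmf had a difference of -0.81 (adjusted p = 0.0771), which was smaller than that of Mcl1 with normexp background correction (-0.36 against 0.58), and Bid was near the background in sham. After ghrelin, Mcl1 was back within the range of the sham arrays on 2 of 3 arrays and just above it on the third, but its difference from BPH missed the threshold (adjusted p = 0.0817). Of the 8 members tested, 1 was called in BPH against sham, 0 in BPH+ghrelin against BPH and 0 in BPH+ghrelin against sham (limma, Benjamini-Hochberg adjusted p under 0.05 over all genes tested). Among all genes the corresponding shares were 4.33%, 1.48% and 6.3%, so a count of 0 or 1 among 8 members is near the background. At an unadjusted p under 0.05 the members numbered 3, 2 and 0, against 26.5%, 21.1% and 23.7% of all genes. The median absolute log2 difference of the members was 0.20, 0.22 and 0.21, beside 0.32, 0.27 and 0.27 over all genes.

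**Figure D1:**
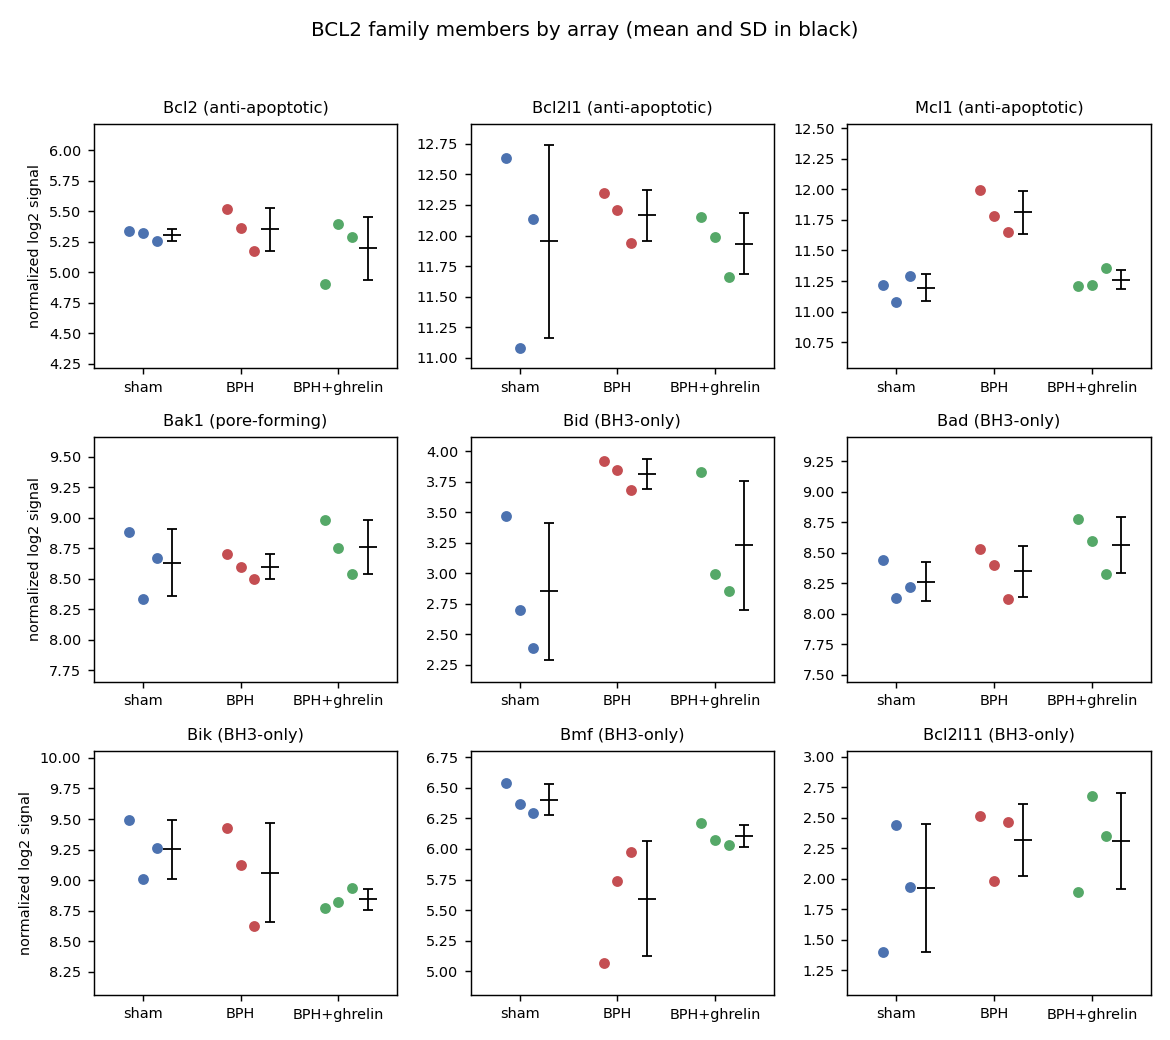
Normalized log2 signal (vertical axis) of the 9 BCL2 family members on each array, by group (horizontal axis). Each coloured point is 1 array, and the black bar and whiskers give the mean and SD of 3 arrays; the 3 BPH arrays of Mcl1 lie at 11.65 to 12.00, above every sham and BPH+ghrelin array.

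Mcl1, an anti-apoptotic member whose protein is short-lived, had log2 levels of 11.22, 11.08 and 11.29 in sham 1 to 3. The BPH arrays were at 12.00, 11.79 and 11.65, and the BPH+ghrelin arrays at 11.21, 11.22 and 11.35. All 3 BPH arrays were thus above all arrays of both other groups, and sham and BPH+ghrelin overlapped. Group means were 11.20 ± 0.11 in sham, 11.81 ± 0.17 in BPH and 11.26 ± 0.08 in BPH+ghrelin (SD, n = 3 each). The 95% interval of the log2 difference was 0.31 to 0.92 for BPH against sham and -0.85 to -0.25 for BPH+ghrelin against BPH, where the level was 1.46-fold lower. BPH+ghrelin against sham differed by 0.07 (95% interval -0.23 to 0.37, adjusted p = 0.804). The comparisons with BPH share its 3 arrays, so a rise against sham and a fall after ghrelin are not separate observations.

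The call for Mcl1 was close to the threshold. Its log2 difference between BPH and sham stayed positive under all 16 alternative processings, at 0.47 to 0.74, and the adjusted p was under the threshold in 6 of them. With 75th percentile scaling in place of quantile normalization the difference was 0.47 (adjusted p = 0.0824). Without sham 1 the adjusted p was 0.0372. It was 0.0587 without sham 2, 0.122 without sham 3, 0.0831 without BPH 1, 0.173 without BPH 2 and 0.0661 without BPH 3. The difference between BPH+ghrelin and BPH was negative throughout, at -0.63 to -0.33, and it was called under 2 of the 16 alternatives (adjusted p = 0.04997 with normexp background correction and 0.0448 with the 6 compared arrays alone). Within the inferred slide that holds BPH and BPH+ghrelin arrays, BPH+ghrelin 1 was 0.60 below the mean of the 3 BPH arrays. With the inferred slide as a block, the adjusted p was 0.678 for BPH against sham and 0.442 for BPH+ghrelin against BPH. Both slide block values hinge on BPH+ghrelin 1, and the second is the same difference as the 0.60 within the slide, not a separate check. With the replicate number as a block, the adjusted p was 0.0990 for BPH against sham and 0.150 for BPH+ghrelin against BPH.

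**Figure D2:**
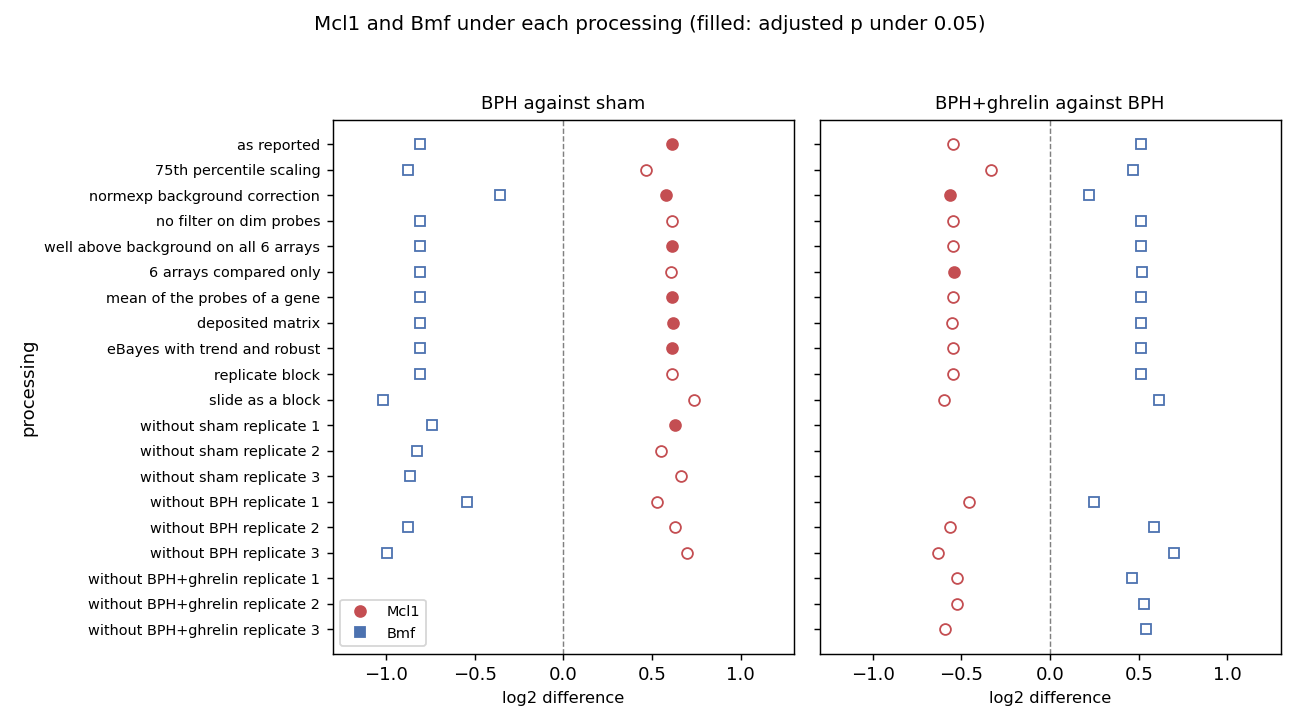
Log2 difference (horizontal axis) of Mcl1 (circles) and Bmf (squares) under the reported processing and each alternative (vertical axis), for BPH against sham and BPH+ghrelin against BPH; filled symbols have an adjusted p under 0.05. Mcl1 keeps its sign in both comparisons but is filled in only 6 of 16 alternatives for BPH against sham.

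Marker lists of other cells differed between the groups in varying directions. In the list of fibroblast and matrix genes, 8 of 8 were higher in BPH than in sham (0 called, median 0.38) and 7 of 8 were lower after ghrelin (2 called, median -0.57). The mean level of that list was 8.62 to 9.79 on the sham arrays, 9.69 to 9.98 on the BPH arrays and 9.08 to 9.48 on the BPH+ghrelin arrays, and all of its genes were well above background on at least some arrays. In the list of fat genes, 4 of 4 tested were higher in BPH and 4 of 4 lower after ghrelin (0 called in both), with mean levels of 4.18 to 8.24, 7.28 to 8.60 and 3.26 to 8.33 in sham, BPH and BPH+ghrelin, and Lep (leptin) was not well above background on any array. Of 8 smooth muscle genes, 6 were higher in BPH than in sham (0 called, median 0.12) and 7 were lower after ghrelin (1 called, median -0.43), and of 5 endothelial genes, 3 were lower in BPH (0 called, median -0.31) and 4 were lower after ghrelin (0 called, median -0.31). Of 5 basal epithelium genes, 4 were higher in BPH than in sham (median 0.72), with Krt14 called (0.72, adjusted p = 0.0447), and the list's mean level was 8.38 to 8.48 on the sham, 8.69 to 8.91 on the BPH and 8.81 to 8.86 on the BPH+ghrelin arrays. Of 6 striated muscle genes tested, 4 were lower in BPH than in sham and 2 higher (median -0.62), with Ckm called lower (-1.90). Of 6 immune genes tested, 3 were lower and 3 higher (median -0.26), with Cd3d called lower (-0.57). The part of these cells in the Mcl1 difference was not tested.

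The 3 genes whose log2 levels followed Mcl1 most closely over the 9 arrays were Gnpat (Pearson r = 0.987), an enzyme of ether lipid synthesis in peroxisomes, Gtf2e2 (r = 0.976), a subunit of the general transcription factor TFIIE, and Wdr43 (r = 0.969), a factor of ribosome biogenesis. Gnpat was at 8.62 to 8.86 in sham, 9.40 to 9.64 in BPH and 8.83 to 8.98 in BPH+ghrelin. These correlations describe 9 points in 3 groups, chosen as the highest among all genes with a symbol, and carry no test.

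The promoters of the 3 members whose BPH and sham arrays did not overlap, Mcl1, Bmf and Bid, are shown for that separation by array, though only Mcl1 was called. They are the 250 bases upstream of the RefSeq start on assembly GRCr8, which is not the assembly named in the array headers (rn4), and lie at chr2:185907918-185908167 (+ strand), chr3:125974065-125974314 (- strand) and chr4:155808320-155808569 (- strand). They read 5′ to 3′ on the strand of the gene, and capitals mark the GC box GGGCGG, the CCAAT box CCAAT and the ETS core CCGGAA, each on either strand:
Mcl1: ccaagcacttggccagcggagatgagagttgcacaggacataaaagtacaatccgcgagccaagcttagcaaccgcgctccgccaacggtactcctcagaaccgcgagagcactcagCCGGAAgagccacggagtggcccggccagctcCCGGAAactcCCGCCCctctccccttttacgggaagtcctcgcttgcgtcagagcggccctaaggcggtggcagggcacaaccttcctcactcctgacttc
Bmf: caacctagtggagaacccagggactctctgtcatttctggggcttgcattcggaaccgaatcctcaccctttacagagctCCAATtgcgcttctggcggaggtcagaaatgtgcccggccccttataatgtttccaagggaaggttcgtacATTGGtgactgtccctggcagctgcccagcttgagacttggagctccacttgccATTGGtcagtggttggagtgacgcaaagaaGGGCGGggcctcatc
Bid: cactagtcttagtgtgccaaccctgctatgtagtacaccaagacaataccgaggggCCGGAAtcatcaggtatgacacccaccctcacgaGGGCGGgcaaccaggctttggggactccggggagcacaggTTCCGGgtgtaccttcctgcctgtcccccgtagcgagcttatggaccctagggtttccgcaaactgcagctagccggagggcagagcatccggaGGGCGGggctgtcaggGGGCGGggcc
Mcl1 has ETS cores starting 133 and 101 bases before the start and a GC box at 91. Bmf has CCAAT boxes at 170, 99 and 45 bases and a GC box at 15, and Bid has GC boxes at 160, 26 and 10 bases and ETS cores at 194 and 120. Of 33469 rat promoters of this length, 30.5% hold a GC box, 34% a CCAAT box and 12.6% an ETS core. The androgen receptor half-site AGAACA, which 17.5% of promoters hold, the cyclic AMP response element TGACGTCA (1.59%) and the TATA box TATAAA (12.9%) were searched as well, and these letters are not in the 3 windows, nor are the STAT motif TTCNNNGAA (7.67%) and the FOXO motif GTAAACA (3.21%). Of the 8 members with a promoter in the reference, 5 hold a GC box (Mcl1, Bmf, Bid, Bak1 and Bcl2l11). These matches describe letters only.

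Among the BH3-only members, Bmf, which can be held at the cytoskeleton and released by loss of attachment, had the opposite order of levels to Mcl1. Its log2 levels were 6.54, 6.37 and 6.30 in sham, 5.07, 5.74 and 5.98 in BPH, and 6.21, 6.07 and 6.04 in BPH+ghrelin. Every BPH array was below every array of the other groups, BPH 1 by the widest margin, and every BPH+ghrelin array was below every sham array. The difference between BPH and sham was -0.81 (SE 0.22, 95% interval -1.32 to -0.30, 1.75-fold lower), with an adjusted p of 0.0771. Without BPH 1 the difference was -0.54, and with normexp background correction it was -0.36 (adjusted p = 0.0519). BPH+ghrelin against BPH gave 0.51 (95% interval 0.00 to 1.02, adjusted p = 0.236). The value fell to 0.25 without BPH 1. BPH+ghrelin against sham gave -0.30 (95% interval -0.81 to 0.21, adjusted p = 0.465).

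Bid, which links the death receptor caspase Casp8 to the mitochondria once cleaved, was close to the background. It exceeded background clearly (the scanner software's well above background flag) on 1 of 3 sham, 3 of 3 BPH and 2 of 3 BPH+ghrelin arrays. Levels were 3.47, 2.70 and 2.39 in sham, 3.92, 3.84 and 3.68 in BPH, and 3.83, 3.00 and 2.86 in BPH+ghrelin. The BPH arrays were above all sham arrays, and BPH+ghrelin overlapped with both. The difference between BPH and sham was 0.96 (SE 0.33, 95% interval 0.21 to 1.72, adjusted p = 0.121). It came to 1.27 (adjusted p = 0.0320) without sham 1, a value that rests on at most 1 sham array well above background and is not counted as a change, and to 0.16 (adjusted p = 0.226) with normexp background correction. Within inferred slides, BPH+ghrelin 1 was 0.02 above the mean of the BPH arrays beside it, and the mean of BPH+ghrelin 2 and 3 differed from that of sham 1 and 2 by -0.16, with both arrays above sham 2 and below sham 1. BPH+ghrelin against BPH gave -0.59 (95% interval -1.34 to 0.17, adjusted p = 0.339), and BPH+ghrelin against sham 0.38 (95% interval -0.37 to 1.13, adjusted p = 0.537).

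Bik, a BH3-only member of the endoplasmic reticulum, was at 9.49, 9.01 and 9.26 in sham, 9.43, 9.12 and 8.63 in BPH, and 8.77, 8.82 and 8.94 in BPH+ghrelin. All BPH+ghrelin arrays lay below all sham arrays, and the BPH arrays spanned both. The difference between BPH+ghrelin and sham was -0.41 (SE 0.22, 95% interval -0.90 to 0.08, adjusted p = 0.292). BPH differed from sham by -0.19 (95% interval -0.69 to 0.30, adjusted p = 0.587), and BPH+ghrelin from BPH by -0.22 (95% interval -0.71 to 0.28, adjusted p = 0.592).

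Bad, a BH3-only member that binds BCL-XL unless phosphorylated by survival kinases, was at 8.44, 8.13 and 8.22 in sham, 8.53, 8.40 and 8.12 in BPH, and 8.77, 8.59 and 8.32 in BPH+ghrelin. All groups overlapped. The differences were 0.09 for BPH against sham (95% interval -0.30 to 0.48, adjusted p = 0.761), 0.21 for BPH+ghrelin against BPH (-0.18 to 0.61, adjusted p = 0.498) and 0.30 for BPH+ghrelin against sham (-0.09 to 0.69, adjusted p = 0.325).

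Bcl2l11, the gene of BIM, was not well above background on any of the 9 arrays. Its signals were 1.40 to 2.44 in sham, 1.98 to 2.52 in BPH and 1.89 to 2.67 in BPH+ghrelin. It did not pass the filter. Without the filter, its differences near the background were 0.40 for BPH against sham, -0.012 for BPH+ghrelin against BPH and 0.38 for BPH+ghrelin against sham (adjusted p = 0.489, 0.994 and 0.561).

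Bak1, which forms pores in the outer mitochondrial membrane, was at 8.88, 8.34 and 8.67 in sham, 8.70, 8.60 and 8.50 in BPH, and 8.98, 8.75 and 8.54 in BPH+ghrelin. The groups overlapped, and sham 2 was the lowest array. BPH differed from sham by -0.03 (95% interval -0.44 to 0.38, adjusted p = 0.929), BPH+ghrelin from BPH by 0.16 (-0.25 to 0.56, adjusted p = 0.635) and BPH+ghrelin from sham by 0.13 (-0.28 to 0.53, adjusted p = 0.709).

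Bcl2, the founding member of the family, was at 5.34, 5.32 and 5.25 in sham, 5.52, 5.36 and 5.17 in BPH, and 4.90, 5.39 and 5.29 in BPH+ghrelin. BPH+ghrelin 1 was low and the other arrays overlapped. BPH differed from sham by 0.05 (95% interval -0.32 to 0.41, adjusted p = 0.875), BPH+ghrelin from BPH by -0.15 (-0.52 to 0.21, adjusted p = 0.606) and BPH+ghrelin from sham by -0.11 (-0.47 to 0.26, adjusted p = 0.727). None of these intervals reaches a difference of the size that Mcl1 had between BPH and sham.

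Bcl2l1 had 4 probes. The brightest was at 12.64, 11.08 and 12.13 in sham, 12.35, 12.21 and 11.94 in BPH, and 12.15, 11.99 and 11.66 in BPH+ghrelin, with sham 2 lowest and all groups overlapping. BPH differed from sham by 0.21 (SE 0.36, 95% interval -0.61 to 1.04, adjusted p = 0.724), which turned to -0.22 without sham 2. BPH+ghrelin differed from BPH by -0.23 (95% interval -1.06 to 0.59, adjusted p = 0.740) and from sham by -0.02 (-0.84 to 0.80, adjusted p = 0.981). The interval is the widest of the 8 members tested in each of the 3 comparisons, and between BPH and sham it takes in a difference of the size that Mcl1 had. A second bright probe had 11.01 in sham 2 and 11.32 to 12.29 on the other arrays, and gave 0.18 for BPH against sham and -0.33 for BPH+ghrelin against BPH. Of the dimmer probes, one gave 0.17 and -0.26, with the signs of the brightest, and the other gave -0.55 for BPH against sham and 0.19 for BPH+ghrelin against BPH, opposite in sign to the brightest. None of these differences passed the threshold (adjusted p = 0.319 to 0.834).

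**Figure D3:**
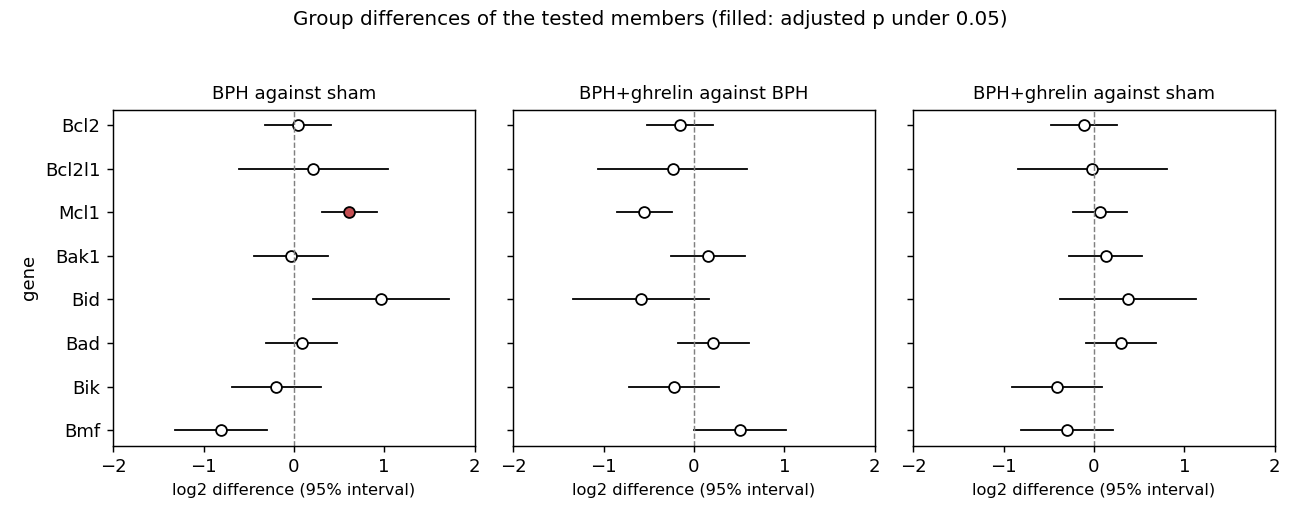
Log2 difference (horizontal axis, point) with its 95% interval (line) for the 8 tested members (vertical axis) in the 3 comparisons; filled points have an adjusted p under 0.05. Mcl1 in BPH against sham is the one filled point, and Bcl2l1 and Bid have the widest intervals.

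The counts of members whose arrays did not overlap between groups were likewise near or below the background. Groups did not overlap for 3 of 8 members in BPH against sham (31.3% of all genes), for 2 in BPH+ghrelin against BPH (39.2%) and for 2 in BPH+ghrelin against sham (30.4%). Under the reported processing, no member reached a 2-fold difference in any comparison, which 8.16%, 6.1% and 7.41% of all genes did. In BPH against sham, Bid, which was near the background in sham, came to 1.00 with the deposited matrix and with the 6 compared arrays alone. It came to up to 1.27 with single arrays left out. Bmf came to -1.02 with the inferred slide as a block.

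Of the other 15 genes of the family, 12 or 13 could be tested in each comparison. One, Bcl2l15, fell in BPH against sham, and 1, Bcl2a1, fell in BPH+ghrelin against BPH, while 0 were called in BPH+ghrelin against sham. The medians were 0.05, -0.08 and -0.07, beside 0.04, 0.02 and 0.04 over all genes. Bax, the pore-forming partner of Bak1, differed by 0.05 between BPH and sham (adjusted p = 0.871) and by -0.07 between BPH+ghrelin and BPH (adjusted p = 0.829). Bbc3, the gene of the p53 target PUMA, differed by 0.05 and -0.24 (adjusted p = 0.924 and 0.621). Both are named for their role, after their values were seen. Pmaip1, the gene of NOXA, which binds MCL1, was not well above background on any array.

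Bcl2a1, an anti-apoptotic gene best known from blood cells, was at 4.10, 4.46 and 4.12 in sham, 4.95, 4.85 and 4.83 in BPH, and 3.09, 3.49 and 3.98 in BPH+ghrelin. The 3 groups did not overlap, with BPH highest and BPH+ghrelin lowest. The difference between BPH+ghrelin and BPH was -1.36 (SE 0.22, adjusted p = 0.0349). The adjusted p was 0.128 without BPH 1, 0.181 without BPH 2, 0.0518 without BPH 3, 0.0656 without BPH+ghrelin 1 and 0.160 without BPH+ghrelin 2. With normexp background correction the difference was -0.29 (adjusted p = 0.0596), and with the inferred slide as a block the adjusted p was 0.145. Ptprc, the leukocyte antigen CD45, fell in the same comparison too (-0.82, adjusted p = 0.0368). Of 7 immune genes tested, 5 were lower and 1 was called, and the mean level of the list was 7.71 to 7.76 in sham, 7.58 to 7.74 in BPH and 7.42 to 7.59 in BPH+ghrelin, with Cd79b and Itgam not well above background on any array. The part of leukocytes in the Bcl2a1 difference was not tested.

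Bcl2l15, a little-studied member found in epithelia of the gut, was at 9.76 to 10.21 in sham, 8.24 to 9.03 in BPH and 8.57 to 9.47 in BPH+ghrelin. Both BPH groups lay below sham. The difference between BPH and sham was -1.40 (SE 0.28, adjusted p = 0.0354), and the adjusted p was 0.0609 without sham 2, 0.122 without sham 3, 0.0756 without BPH 1 and 0.154 without BPH 2. Bcl2l14 was at 9.73 to 9.94 in sham, 10.20 to 11.16 in BPH and 9.59 to 9.60 in BPH+ghrelin. Its differences, 0.85 for BPH against sham (adjusted p = 0.0681) and -1.10 for BPH+ghrelin against BPH (adjusted p = 0.0563), missed the threshold. They passed it under 2 and 6 of 16 alternatives, among them the fit without BPH 3 (adjusted p = 0.0279 and 0.0221), and the adjusted p ranged up to 0.847 and 0.412.

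**Figure D4:**
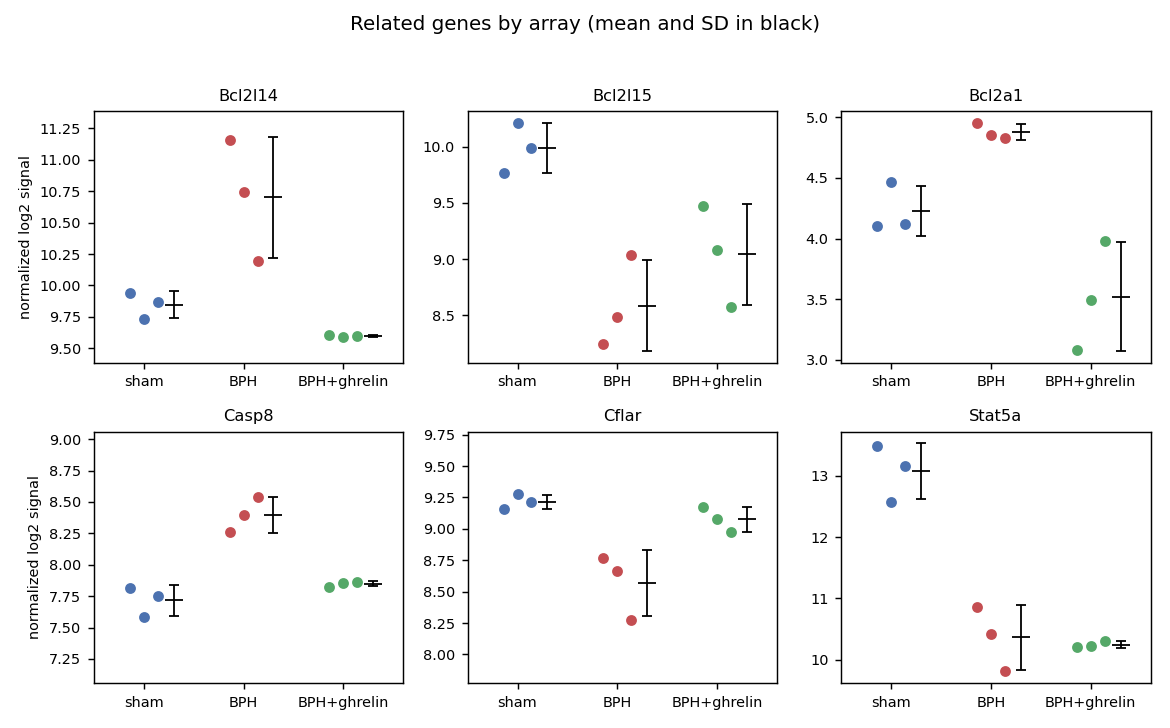
Normalized log2 signal (vertical axis) of 6 genes of the family and of linked pathways on each array, by group (horizontal axis); points are arrays, and black bars and whiskers are the mean and SD of 3. Casp8 is highest in BPH, Cflar is lowest in BPH, and Stat5a is below 11 in both BPH groups against 12.58 to 13.49 in sham.

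Downstream of the mitochondria, 16 of 16 genes of the apoptosome and caspase list were tested and 0 were called in any of the 3 comparisons (limma). The members of this list with the largest ratio of difference to error in BPH against sham were Casp6, an executioner caspase, at -0.30 (adjusted p = 0.161), and Htra2, a mitochondrial protease, at 0.34 (adjusted p = 0.101). In BPH+ghrelin against BPH they were Casp6 at 0.27 (adjusted p = 0.246) and Casp9, the initiator caspase of the apoptosome, at -0.63 (adjusted p = 0.246). In BPH+ghrelin against sham, Aifm1 and Vdac3 each differed by 0.24 (adjusted p = 0.210 and 0.221). The medians of the list were 0.01, 0.02 and 0.01.

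In the death receptor list, 10 of 12 genes were tested and 1 was called in BPH against sham, 0 in the other comparisons. Casp8, the initiator caspase that cleaves BID, was at 7.82, 7.58 and 7.75 in sham, 8.26, 8.39 and 8.54 in BPH, and 7.83, 7.86 and 7.86 in BPH+ghrelin. It rose by 0.68 in BPH (SE 0.12, adjusted p = 0.0260), and BPH+ghrelin differed from BPH by -0.55 (adjusted p = 0.0710). The first value was not called without sham 3 (adjusted p = 0.102), BPH 2 (0.136) or BPH 3 (0.0745), nor with the 6 compared arrays alone (0.107) or the inferred slide as a block (0.667). Fas differed by -0.39 between BPH and sham (adjusted p = 0.121), Tnfrsf11b, a decoy receptor for TRAIL and RANKL, by -1.52 between BPH+ghrelin and BPH (adjusted p = 0.0925) and by -1.04 between BPH+ghrelin and sham (adjusted p = 0.147), and Faslg by -0.45 between BPH+ghrelin and sham (adjusted p = 0.276).

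Among the caspase inhibitors, 8 of 13 had a probe and were tested, and 1 was called in 1 comparison. Cflar, whose product FLIP blocks Casp8, was at 9.16, 9.27 and 9.21 in sham, 8.77, 8.66 and 8.27 in BPH, and 9.17, 9.08 and 8.97 in BPH+ghrelin. Its BPH arrays lay below all other arrays, the reverse of Casp8. The differences were -0.65 for BPH against sham (adjusted p = 0.0531) and 0.51 for BPH+ghrelin against BPH (adjusted p = 0.122). The first was called under 6 of 16 alternatives, including without sham 1 (0.0416), and ranged from -0.80 to -0.21 (adjusted p = 0.0324 to 0.708). Birc5, the gene of survivin, which also serves in cell division, was higher in BPH+ghrelin than in sham by 1.79 (SE 0.43, adjusted p = 0.0476). That call held only without sham 1 when single arrays were left out (adjusted p = 0.0484 to 0.157). All 7 proliferation genes tested were higher in that comparison too (3 called, median 1.99), and their part in the Birc5 difference was not tested. Xiap differed by 1.05 between BPH and sham (adjusted p = 0.212), and Birc2 by 0.24 between BPH+ghrelin and sham (adjusted p = 0.286).

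Of 15 known transcriptional regulators of BCL2 genes, 12 were tested, and 1 was called in BPH against sham, 0 in BPH+ghrelin against BPH and 2 in BPH+ghrelin against sham. Stat5a, a factor activated by prolactin and growth hormone, was at 13.49, 12.58 and 13.15 in sham, 10.86, 10.42 and 9.81 in BPH, and 10.20, 10.23 and 10.30 in BPH+ghrelin. The log2 difference was -2.71 for BPH against sham (SE 0.30, adjusted p = 0.00450) and -2.83 for BPH+ghrelin against sham (adjusted p = 0.00249). Both calls held with each single array left out, but not with the inferred slide as a block (adjusted p = 0.452 and 0.0707). Some secretory genes fell in the same comparisons, such as Pbsn (-2.65 and -1.89) and Svs4 of the seminal vesicle (-4.26 and -4.80). Others did not. In the secretory epithelium list, 7 of 13 genes were higher in BPH than in sham, and 4 of 13 were higher in BPH+ghrelin than in sham. Krt8 was called higher in both (0.96 and 0.75). The part of secretory tissue in the Stat5a difference was not tested. E2f1, a factor of cell cycle entry, was higher in BPH+ghrelin than in sham by 1.22 (adjusted p = 0.0330), which held without sham 2 and with no other single array left out (adjusted p = 0.0245 to 0.121), and the mean of its probes gave 0.55 (adjusted p = 0.158). It differed by 0.80 between BPH+ghrelin and BPH (adjusted p = 0.143). Ddit3, the stress factor CHOP, differed by -0.57 between BPH and sham (adjusted p = 0.153, or 0.0484 without sham 1) and by 0.70 between BPH+ghrelin and BPH (adjusted p = 0.135).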

How the data were processed

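Expression was measured on 9 Agilent one-colour rat arrays, 3 per group, 1 animal each; groups came from the sample labels. The intensities deposited by the authors were Feature Extraction (11.0.1.1) signals after background subtraction, linear and without normalization across arrays. Their deposited matrix of log2 values had been quantile normalized and floored, and served as an alternative. Animals and doses follow the study's methods; one of its legends gives ghrelin another dose and route.

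Outlier spots were removed, spots of a probe averaged, and log2 signals quantile normalized over the 9 arrays (R 4.3.3). Accessions of 17998 of 30356 probes (59.3%) matched the RefSeq table of GRCr8. Testing a probe required the well above background flag on 3 or more of the 6 arrays in a comparison; where several probes of a gene passed, the one with the highest mean stood for it. limma 3.58.1 (lmFit, eBayes, 3 groups) was used with Benjamini-Hochberg adjustment over all genes tested, a call being an adjusted p under 0.05. With 3 arrays a group, the smallest two-sided p of an exact permutation test is 0.1, so none was used. The number of arrays limits the precision. The procedure was tested on simulated data with independent noise, which held no differences of slide, signal strength or tissue content.

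Members and lists were chosen with earlier results of these data known. Named genes were all members; of the apoptosis and regulator lists, those called and the up to 2 with the largest absolute moderated t per comparison; and the 3 genes most correlated with a called member. Promoters are RefSeq's, and Bik has no entry. Alternatives covered scaling, background correction, filter, arrays in the fit, probe choice, deposited values, variance model, replicate and inferred slide blocks, and each array left out.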

Additional observations from a re-analysis of the deposited data

How the results depend on the processing

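Members called in BPH against sham numbered 0, in place of 1, with 75th percentile scaling, without a filter on dim probes, with the 6 compared arrays alone, with the replicate number as a block and with the slide (inferred from scan and position) as a block, and 0 to 2 with single arrays left out, where the 2 were Mcl1 and Bid, the latter against at most 1 sham array well above background. In BPH+ghrelin against BPH, 1 member (Mcl1) in place of 0 was called with normexp background correction and with the 6 arrays alone. In BPH+ghrelin against sham the count was 0 under all 16 alternatives. Over all genes, calls in BPH against sham went from 847 to 533 without the filter, 181 with 6 arrays alone, 243 with the replicate block, 2 with the slide block and 119 to 3082 with single arrays left out. In BPH+ghrelin against BPH they went from 293 to 515 with 75th percentile scaling, 195 without the filter, 2101 with 6 arrays alone, 17 with the replicate block, 2 with the slide block and 3 to 400 with single arrays left out. In BPH+ghrelin against sham they went from 1210 to 803 without the filter, 461 with the replicate block, 84 with the slide block and 224 to 1921 with single arrays left out. Without the filter 26905 genes were tested in each comparison, against 19552, 19749 and 19197 with it. The cause of the changed counts was not tested. The 75th percentile scaling moved the median log2 difference of all genes between BPH and sham from 0.04 to -0.09, the share of calls that were higher from 49.7% to 32.0%, and in BPH+ghrelin against BPH from 33.4% to 47.2%.

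Differences of members that changed sign were all small or not called. With the slide block, BPH against sham gave -0.25 for Bad, -0.020 for Bcl2l1 and -0.18 for Bid, BPH+ghrelin against BPH gave 0.018 for Bid, and BPH+ghrelin against sham gave 0.010 for Bcl2 and -0.16 for Bid. With 75th percentile scaling, Bcl2 gave -0.052 in BPH against sham, and Bcl2l1 gave 0.023 in BPH+ghrelin against BPH and 0.087 in BPH+ghrelin against sham. Normexp background correction gave -0.0087 for Bcl2 in BPH against sham. Another probe of Bcl2l1 gave -0.55 in BPH against sham and 0.19 in BPH+ghrelin against BPH. With single arrays left out, BPH against sham ranged from -0.0019 to 0.20 for Bad, -0.18 to 0.096 for Bak1, -0.039 to 0.13 for Bcl2, -0.22 to 0.56 for Bcl2l1 and -0.38 to 0.024 for Bik, and BPH+ghrelin against sham from -0.019 to 0.25 for Bak1, -0.21 to 0.037 for Bcl2 and -0.45 to 0.32 for Bcl2l1. Mcl1 and Bmf kept their sign in every alternative. Deviations of same-numbered arrays from their group means had correlations of -0.13 to 0.25 over the 3 comparisons. With 3 arrays a group, these cannot decide whether the numbers pair the animals. With the replicate block Mcl1 had an adjusted p of 0.0990 in BPH against sham. The same block ended the calls of Bcl2a1 (0.0824), Bcl2l15 (0.0891), Casp8 (0.0783), Birc5 (0.105) and E2f1 (0.0572), and the slide block those of Bcl2l15 (0.452), Birc5 (0.330) and E2f1 (0.264) as well. Signal over background limits Bid and Bcl2l11.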
